A study of Mus musculus with 8 samples.

Results

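The colony-stimulating factors and their receptors were followed in bulk RNA-Seq of PyMt mammary tumors treated topically with calcipotriol or with its solvent, EtOH. The group was defined by name and holds 10 genes among the 55414 mouse gene identifiers of the table: the ligands Csf1, Csf2, Csf3 and Il34 and the receptor genes Csf1r, Csf2ra, Csf2rb, Csf2rb2, Csf3r and Il3ra. All 10 passed the filter on low counts that left 14458 genes for testing. The tumors grew in the mammary fat pad of WT female C57BL/6 mice from the PyMt cell line, which was established from an MMTV-PyMt mouse, a strain whose mammary tumors arise because the mouse mammary tumor virus promoter drives the polyoma middle T oncogene. Calcipotriol is a vitamin D analog, and it was given at 20 nmol every 2 days from 2 days after implantation. There were 4 EtOH-treated tumors (replicates 1, 2, 3 and 4) and 4 calcipotriol-treated tumors (replicates 1, 5, 6 and 7), taken 24 hours after the last treatment. Every tumor came from that 1 cell line, and the age of these mice is not given in the labels. The study states an age range in weeks for the recipient mice of its tumor growth experiment with the same treatments.

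The colony-stimulating factors are secreted proteins that control the survival, growth and activation of myeloid cells. Csf1 (M-CSF) and Il34 both act through the tyrosine kinase receptor Csf1r, on which macrophages depend in most tissues. Csf2 (GM-CSF) binds its own alpha chain, Csf2ra, together with a beta chain, Csf2rb, that the receptors for IL-3 and IL-5 also use. The mouse has a second beta chain, Csf2rb2, that serves IL-3 only, with Il3ra as its alpha chain. Csf3 (G-CSF) acts through Csf3r, the receptor that drives the formation of neutrophils. In mammary tumors Csf1 is best known for the macrophages it maintains.

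Calcipotriol-treated tumors had lower RNA levels of Csf1r and Csf2rb than EtOH-treated tumors, and the ligands took no common direction. Csf1r was 3.13-fold lower and Csf2rb 2.55-fold lower, and these 2 of the 10 genes passed both thresholds, a Benjamini-Hochberg adjusted p under 0.05 over all tested genes in edgeR's quasi-likelihood test together with a log2 fold change of 1 or more in size. Among all tested genes, 0.948% passed in this direction. None of the 10 passed as higher in edgeR, against 1.07% of all genes, although 1 of them, Csf3, had the largest fold change of the group and passed with DESeq2 (limma-voom gave 0). An unadjusted p under 0.05 was found for 6 of the 10 genes (Csf3 and all receptors but Il3ra), against 18.4% of all tested genes. The log2 fold change was negative for 8 of the 10, with a median of -0.55 over the 10 and -1.02 over the 6 receptors, and the median over all tested genes was 0.02. For 4 receptors (Csf1r, Csf2ra, Csf2rb and Csf3r) every calcipotriol-treated tumor lay below every EtOH-treated tumor, as it did for 6.16% of all genes. Only Csf3 lay above without overlap, as 6.32% of all genes did. In bulk tumors, fewer cells of a type and less RNA per cell cannot be told apart.

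**Figure D1:**
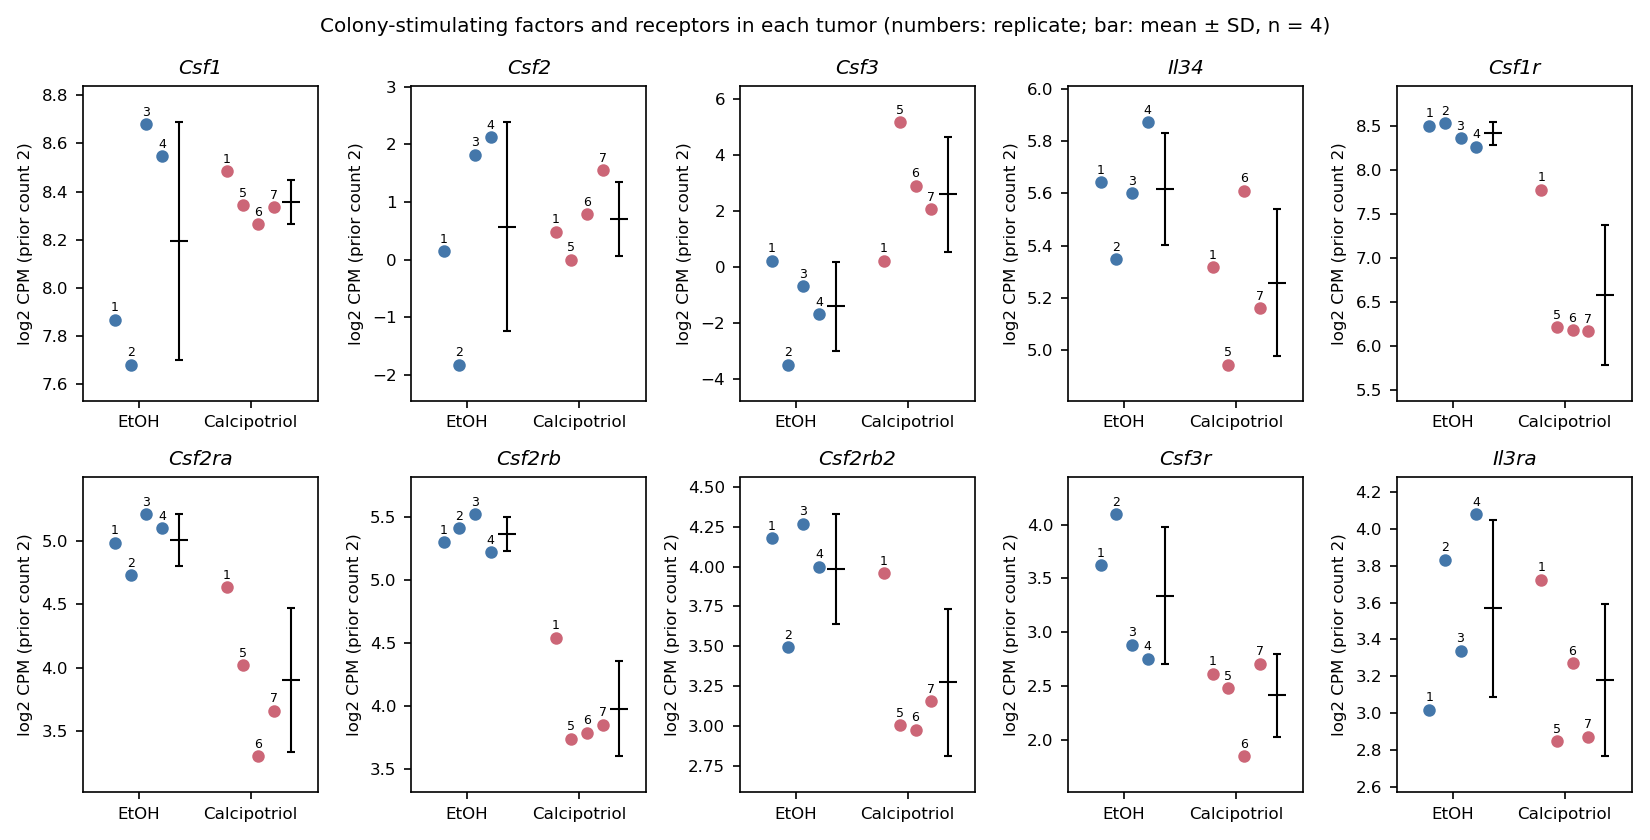
Level of each gene in each tumor, as log2 CPM (library-scaled counts) with a prior count of 2; numbers mark the replicate and bars the mean and SD of 4 tumors. The calcipotriol-treated tumors lie below all EtOH-treated tumors for Csf1r, Csf2ra, Csf2rb and Csf3r, and tumor 1 of the calcipotriol group lies nearest to the EtOH group for Csf1r, Csf2ra and Csf2rb.

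The tumors were sequenced to 19685397 to 25084715 counts each. One library stood apart within its group in these genes: calcipotriol tumor 1 lay between the EtOH group and the other 3 calcipotriol-treated tumors for Csf1r, Csf2ra and Csf2rb. Its Csf1r level was 3.01-fold that of the mean of the other 3. Without it 642 genes passed both thresholds, against 292 with it. The EtOH group also held structure. Over the genes that averaged 20 counts or more, tumors 1 and 2 differed from each other less (mean squared difference 41.9, in units of counting variance) than from tumors 3 and 4 (82 to 106), and tumors 3 and 4 differed by 20.2. No label gives a batch for these tumors. The labels call the cells epithelial, but Epcam, an epithelial adhesion gene, had 0 to 106 counts per EtOH-treated tumor and 26 to 536 per calcipotriol-treated tumor. The epithelial keratin Krt8 stood at 592 ± 67.3 CPM with EtOH and 368 ± 108 CPM with calcipotriol (SD, n = 4). Macrophage, endothelial and red cell genes were measured in every tumor.

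Csf1, the main growth factor of macrophages, was the most abundant ligand in both groups. Its level, in counts scaled to a common library size (CPM), was 234, 205, 410 and 374 CPM in EtOH tumors 1 to 4, and 359, 325, 308 and 323 CPM in calcipotriol tumors 1, 5, 6 and 7. The 4 calcipotriol-treated tumors sat within the range of the EtOH-treated ones, where tumors 1 and 2 were low and tumors 3 and 4 high. The means were 306 ± 101 and 328 ± 21.4 CPM (SD, n = 4), with a log2 fold change of 0.10 ± 0.22 (SE, edgeR adjusted p = 0.843). The coefficient of variation was 33.2% in the EtOH group and 6.53% in the calcipotriol group, while the counting error of a single tumor was at most 1.54%. The sign of the small difference turned when EtOH tumor 1 was left out (log2 fold change -0.0046) or EtOH tumor 2 (-0.05).

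Il34, the other ligand of Csf1r, stood at 49.9, 40.7, 48.4 and 58.5 CPM in EtOH tumors 1 to 4. It stood at 39.8, 30.7, 48.8 and 35.7 CPM in calcipotriol tumors 1, 5, 6 and 7. Of the latter, tumor 6 was within the EtOH range and the other 3 were below it. The log2 fold change was -0.35 ± 0.17 (SE, edgeR adjusted p = 0.307), and it stayed between -0.48 and -0.25 over 13 alternative settings.

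Csf1r, the receptor for both, was the most abundant receptor in both groups. It measured 363, 371, 328 and 308 CPM in EtOH tumors 1 to 4. It measured 220, 74.1, 72.3 and 72.1 CPM in calcipotriol tumors 1, 5, 6 and 7. The EtOH-treated tumors were close together, 3 calcipotriol-treated tumors were closer still at a much lower level, and calcipotriol tumor 1 lay apart from both. The means were 342 ± 29.8 and 110 ± 73.4 CPM (SD, n = 4), and the log2 fold change was -1.64 ± 0.35 (SE, edgeR adjusted p = 0.0374). Without calcipotriol tumor 1 it was -2.23 (adjusted p = 7.06e-05). Leaving out any one of the other 7 tumors kept the log2 fold change between -1.69 and -1.49 but took the adjusted p above the threshold, to 0.0605 to 0.113.

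Csf1r lies on chromosome 18 (61100598 to 61132149, plus strand, GRCm38), and its exons share 873 of 5774 bases with Hmgxb3, which is on the opposite strand. The deposited values of both genes had decimals in all 8 tumors, and in all 8 the sum of the pair was a whole number (within 0.02), as it would be if shared reads had been divided between the pair. In EtOH tumor 1, for example, the values were 7467.7 for Csf1r and 459.3 for Hmgxb3, which add up to 7927. Hmgxb3 itself stood at 21.8 ± 2.53 CPM with EtOH and 20.9 ± 6.8 CPM with calcipotriol (SD, n = 4; log2 fold change -0.06, edgeR adjusted p = 0.918). The summed level of the pair was 364 ± 31.7 CPM with EtOH and 130 ± 79.2 CPM with calcipotriol, 2.79-fold lower, and this sum does not change with the way the reads were divided.

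Macrophage markers were read beside Csf1r, since the receptor is mainly expressed by these cells. Of 14 macrophage markers, all of them tested, 13 had a negative log2 fold change, with a median of -0.84. Adgre1 (F4/80) fell from 73.2 ± 8.37 to 31 ± 13.9 CPM (SD, n = 4; edgeR adjusted p = 0.0325). Lyz2 (lysozyme) fell and Cd163, a scavenger receptor of macrophages, rose (log2 fold change -1.75 and 1.87, edgeR adjusted p = 0.00683 and 0.0192). DESeq2 called 4 of the markers lower and limma-voom 3, against 2 in edgeR, and each called 1 higher. The summed level of the 14 markers was 3450 to 4760 CPM in EtOH-treated tumors, 2730 CPM in calcipotriol tumor 1 and 1550 to 1990 CPM in calcipotriol tumors 5, 6 and 7, and no marker was at 0. Csf1r was therefore also set against these markers within each tumor, as its log2 CPM minus the mean log2 CPM of the 14 markers. This relative level was 1.73, 1.67, 1.13 and 1.06 in EtOH tumors 1 to 4. It was 1.04, 0.443, 0.335 and 0.399 in calcipotriol tumors 1, 5, 6 and 7. The groups did not overlap, though calcipotriol tumor 1 came close to EtOH tumor 4. The means were 1.40 ± 0.351 and 0.555 ± 0.329 (SD, n = 4), a difference of -0.84 in log2 units (two-sided exact permutation p = 0.0286, the smallest that 70 arrangements can give, and 0.0571 after Benjamini-Hochberg adjustment over the 6 ratios compared). With the median of the markers in place of their mean the difference was -1.56, so its size depends on how the markers are summarised. Lower Csf1r and lower macrophage markers were found in the same tumors. By staining of tumor sections, the study reports a significant rise in macrophage number with calcipotriol, opposite to the direction of most of these marker RNAs. The stained tumors came from mice that also received a control antibody (IgG), which the study does not describe for the sequenced tumors. The study does not state whether the stained tumors were the sequenced ones, and the reason for the difference was not tested. The part of macrophage number in the Csf1r result was not tested. The ratio of Csf1r to the markers cannot separate cell number from RNA per cell, because the markers are RNA levels too and did not all move together.

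Csf2 (GM-CSF), a growth and activating factor of macrophages and granulocytes, was scarce in both groups. It had 21, 4, 85 and 97 counts in EtOH tumors 1 to 4, or 1.02, 0.195, 3.44 and 4.27 CPM. It had 33, 20, 34 and 67 counts in calcipotriol tumors 1, 5, 6 and 7, or 1.31, 0.913, 1.63 and 2.84 CPM. The EtOH-treated tumors spanned both the lowest and the highest value, and tumors 1 and 2 were again below tumors 3 and 4. The log2 fold change was -0.42 ± 0.78 (SE, edgeR adjusted p = 0.825), while the difference of mean log2 CPM was 0.14, so these data give no direction for Csf2. Its exons share 96 of 800 bases with an antisense transcript, Gm12223, which could take or give reads. The deposited values of Csf2 were whole numbers in every tumor, so no fractional division of reads shows in them.

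Csf2ra, the alpha chain that makes the receptor specific for GM-CSF, measured 31.5, 26.4, 36.9 and 34.1 CPM in EtOH tumors 1 to 4. It measured 24.7, 16.2, 9.8 and 12.6 CPM in calcipotriol tumors 1, 5, 6 and 7. All calcipotriol-treated tumors lay below the EtOH range, with tumor 1 the nearest to it. The log2 fold change was -1.03 ± 0.26 (SE, edgeR adjusted p = 0.0679), so Csf2ra met the fold minimum and missed the adjusted threshold. Without calcipotriol tumor 1 it was -1.33 (adjusted p = 0.00605), and it also passed with DESeq2 (adjusted p = 0.00707), limma-voom (0.0452) and no filter on low counts (0.0276).

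Csf2rb, the signaling chain shared by the receptors for GM-CSF, IL-3 and IL-5, gave the smallest p of the 10 genes. It measured 39.3, 42.5, 46 and 37.2 CPM in EtOH tumors 1 to 4. It measured 23.2, 13.3, 13.7 and 14.4 CPM in calcipotriol tumors 1, 5, 6 and 7. The spread within each group was small beside the gap between them, and calcipotriol tumor 1 was again the highest of its group. The means were 41.2 ± 3.83 and 16.1 ± 4.73 CPM (SD, n = 4), and the log2 fold change was -1.35 ± 0.20 (SE, edgeR adjusted p = 0.009). Csf2rb stayed past both thresholds in each of the 13 alternative settings, with a log2 fold change of -1.58 to -1.27 and an adjusted p of at most 0.0405.

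Csf2rb2, the beta chain that serves IL-3 alone, measured 18, 11.2, 19.2 and 15.9 CPM in EtOH tumors 1 to 4. It measured 15.4, 7.94, 7.78 and 8.81 CPM in calcipotriol tumors 1, 5, 6 and 7. The groups overlapped, because calcipotriol tumor 1 was above EtOH tumor 2. The log2 fold change was -0.68 ± 0.27 (SE, edgeR adjusted p = 0.213), and without calcipotriol tumor 1 it was -0.97 (adjusted p = 0.0331), still short of the fold minimum.

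The beta chain genes lie side by side on chromosome 15, Csf2rb at 78325752 to 78353847 on the plus strand and Csf2rb2 at 78282507 to 78305721 on the minus strand (GRCm38, GENCODE M21). They are near-copies, so reads can be hard to assign to one of them, and stretches of their coding sequences are shown for that reason. Of 2628 aligned coding bases 95.2% were identical, the longest identical run was 242 bases, and 26% of the 50-base windows of Csf2rb occurred in Csf2rb2 without a difference (11% of the 100-base windows). In the following 90-base stretches, given 5′ to 3′ on the coding strand from the GENCODE transcripts, capitals mark bases that differ between the genes. The first stretch is shared without a difference (coding bases 662 to 751 of Csf2rb), the next pair has 3 differences (from base 1515 of Csf2rb), and the last pair is the least alike, with 16 differences (from base 308).
Csf2rb and Csf2rb2, identical: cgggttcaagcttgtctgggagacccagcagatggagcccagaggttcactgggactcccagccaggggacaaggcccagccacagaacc
Csf2rb, 3 differences: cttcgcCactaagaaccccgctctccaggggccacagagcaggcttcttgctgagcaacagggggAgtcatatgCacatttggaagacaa
Csf2rb2, 3 differences: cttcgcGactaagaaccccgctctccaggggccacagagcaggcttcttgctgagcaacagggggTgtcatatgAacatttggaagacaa
Csf2rb, 16 differences: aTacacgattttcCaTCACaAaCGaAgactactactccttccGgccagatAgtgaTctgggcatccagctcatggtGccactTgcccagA
Csf2rb2, 16 differences: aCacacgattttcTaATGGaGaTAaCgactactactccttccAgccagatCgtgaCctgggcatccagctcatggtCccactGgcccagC

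Reads from stretches like the first cannot be told apart, while reads from stretches like the last can. The deposited values of the beta chain genes had decimals in 4 of 8 tumors, and the sum of the pair was a whole number in all 8 (808.04 and 370.96 in EtOH tumor 1, which add up to 1179). Summed over the pair, which no division of reads can change, the level was 57.3 ± 5.52 CPM with EtOH and 26.2 ± 8.41 CPM with calcipotriol (SD, n = 4), 2.19-fold lower. How the loss was shared between them is less certain. Per kilobase of transcript, Csf2rb exceeded Csf2rb2 2.11-, 3.68-, 2.32- and 2.26-fold in EtOH tumors 1 to 4. In calcipotriol tumors 1, 5, 6 and 7 it exceeded Csf2rb2 1.45-, 1.62-, 1.71- and 1.58-fold. The groups did not overlap in this ratio, which differed by -0.67 on the log2 scale (two-sided exact permutation p = 0.0286, 0.0571 after adjustment over 6 ratios).

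Promoters were to be shown for Csf3, as the ligand with the largest fold change, and for another ligand. Csf3 had no entry in the promoter table used, so windows of receptor genes are shown, chosen after the search. RefSeq's promoter table (GRCm38.p6) had entries for Csf1, Csf2, Csf2ra, Csf2rb2, Csf3r and Il3ra. The 250 bases before RefSeq's start were searched on both strands for GAGGAA, the core letters bound by PU.1 (Spi1), which drives many myeloid genes, and for TGANTCA (AP-1), GGGNNTTTC (NF-kB), AGATTCCAC (the cytokine-responsive letters known from colony-stimulating factor promoters) and AGGTCA (a half-site of nuclear receptors, the vitamin D receptor among them). GAGGAA occurred in Csf2ra, Csf2rb2 and Csf3r and not in Il3ra, and 23.3% of all 32851 promoters held it. GGGNNTTTC occurred in Csf1 (3.72% of all promoters). None of the 6 entries held TGANTCA (6.75% of all), AGATTCCAC (0.189%) or AGGTCA (14%), and the Csf2 window held none of the 5 motifs. RefSeq's starts differ from those of GENCODE. The windows of Csf2ra, Csf3r and Il3ra run past the GENCODE start into the gene. The GAGGAA copies of Csf2ra and Csf3r lie at or inside that start. The Csf2 window, chr11:54249900-54250149 on the minus strand, lies wholly before the GENCODE start at 54249667. The bases next to that start were not searched, so the result for Csf2 does not cover them. The windows of Csf2ra and Csf2rb2, which encode chains of the GM-CSF and IL-3 receptors, are given 5′ to 3′ along the gene, with GAGGAA or its complement TTCCTC in capitals. Csf2ra has 2 adjoining copies at the end of its window, chr19:61228419-61228668 on the minus strand, and Csf2rb2 has 1 copy on the other strand in chr15:78305722-78305971, also a minus-strand gene.
Csf2ra: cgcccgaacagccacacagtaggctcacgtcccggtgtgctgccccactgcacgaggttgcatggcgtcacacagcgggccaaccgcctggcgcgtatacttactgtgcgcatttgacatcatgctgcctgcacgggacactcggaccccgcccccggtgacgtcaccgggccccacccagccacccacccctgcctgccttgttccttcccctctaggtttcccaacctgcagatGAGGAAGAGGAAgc
Csf2rb2: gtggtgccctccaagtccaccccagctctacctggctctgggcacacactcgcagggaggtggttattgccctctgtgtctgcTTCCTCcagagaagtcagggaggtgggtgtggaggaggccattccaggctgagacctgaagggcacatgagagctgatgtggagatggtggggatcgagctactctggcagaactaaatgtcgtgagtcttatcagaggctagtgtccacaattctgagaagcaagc

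The motif copies are a description of these letters, and no binding data were analysed here. Spi1 itself had a log2 fold change of -1.07 ± 0.36 (SE, edgeR adjusted p = 0.141), with overlapping groups, and it passed with DESeq2.

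Csf3 (G-CSF), which drives the production and release of neutrophils, showed the largest difference of the 10 genes and the least even one. It had 22, 0, 13 and 5 counts in EtOH tumors 1 to 4, or 1.07, 0, 0.526 and 0.22 CPM. It had 27, 779, 153 and 96 counts in calcipotriol tumors 1, 5, 6 and 7, or 1.07, 35.5, 7.35 and 4.07 CPM. Calcipotriol tumor 5 was far above the rest, tumors 6 and 7 were above every EtOH-treated tumor, and tumor 1 equaled EtOH tumor 1 within counting error. The absence of overlap rests on that last pair, 1.072 against 1.069 CPM. In EtOH tumor 2 the count of 0 allows a level of up to 0.146 CPM (3 counts, for counting error only). The means were 0.454 ± 0.463 and 12 ± 15.9 CPM (SD, n = 4), and the log2 fold change was 4.71 ± 1.16 (SE, edgeR adjusted p = 0.0608), a 26.2-fold difference that missed the adjusted threshold. It passed with DESeq2 (adjusted p = 0.00878), with no filter on low counts (0.00902) and without calcipotriol tumor 1 (log2 fold change 5.09, adjusted p = 0.0144), and not with limma-voom (0.376). Without calcipotriol tumor 5 it was 3.18 (adjusted p = 0.197). In log2 CPM the groups differed by 4 (two-sided exact permutation p = 0.0286, the smallest possible).

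Csf3r, the receptor for G-CSF, measured 12.2, 17.1, 7.28 and 6.65 CPM in EtOH tumors 1 to 4. It measured 6.03, 5.48, 3.51 and 6.44 CPM in calcipotriol tumors 1, 5, 6 and 7. EtOH tumors 1 and 2 were well above all others, whereas EtOH tumors 3 and 4 were close to the calcipotriol range. The log2 fold change was -1.01 ± 0.34 (SE, edgeR adjusted p = 0.151), and it passed in none of the 13 alternative settings (adjusted p = 0.0679 to 0.341).

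Neutrophil genes were set beside Csf3 and Csf3r. Of 12 neutrophil markers 8 were tested, of which none had an unadjusted p under 0.05 in edgeR or passed with DESeq2 or limma-voom (0 of 8 in each), and the median log2 fold change was 0.19. Their first-named member S100a8 stood at 18.1 ± 11.5 CPM with EtOH and 25.1 ± 17.8 CPM with calcipotriol (SD, n = 4; log2 fold change 0.47, edgeR adjusted p = 0.699). Ly6g, the surface marker that defines mouse neutrophils, had 0 to 7 counts with EtOH and 3 to 17 with calcipotriol and was too low to test. The summed level of the markers was 29.4 to 98 CPM with EtOH and 40.1 to 158 CPM with calcipotriol, which overlap. The log2 CPM of Csf3r minus the mean over the 8 tested markers was 1.42, 1.27, 1.93 and 2.14 in EtOH tumors 1 to 4. It was 1.28, -0.544, 0.0617 and 1.06 in calcipotriol tumors 1, 5, 6 and 7, so that tumor 1 lay within the EtOH range. The difference of -1.22 gave a two-sided exact permutation p = 0.0571 (0.0857 after adjustment over 6 ratios), and without calcipotriol tumor 1 it was -1.5 (exact permutation p = 0.0286 before adjustment).

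Il3ra, the alpha chain of the IL-3 receptor, measured 8.02, 14.2, 10 and 16.8 CPM in EtOH tumors 1 to 4. It measured 13.1, 7.12, 9.56 and 7.24 CPM in calcipotriol tumors 1, 5, 6 and 7. The groups overlapped over most of their range, and the log2 fold change was -0.40 ± 0.29 (SE, edgeR adjusted p = 0.508). Il3, its ligand, had 0 counts in all 8 tumors, and Il5 had 0 to 9.

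**Figure D2:**
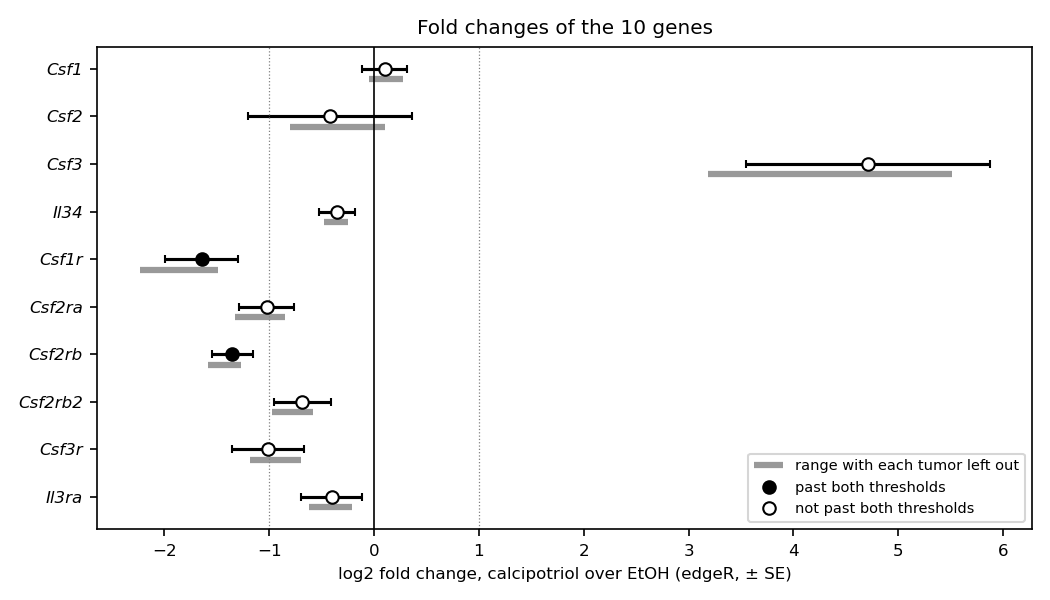
Log2 fold change of each gene, calcipotriol over EtOH, as circles with the SE from edgeR; filled circles passed both thresholds, dotted lines mark an absolute log2 fold change of 1 and grey bars give the range when each tumor was left out in turn. Csf1r and Csf2rb are filled, all 6 receptors lie left of 0, and Csf3 lies at 4.71 with a bar from 3.18 to 5.51.

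The levels were ordered per kilobase of the longest protein-coding transcript, so that genes of different length can be compared. With EtOH, Csf1 (73.2 ± 24.3 CPM per kilobase) and Csf1r (72.8 ± 6.33) led and did not differ beyond their spread, followed by Il34 (27.5 ± 4.08), Csf2ra (17.4 ± 2.42) and Csf2rb (8.42 ± 0.781), whose ranges overlapped with no neighbor (SD, n = 4). Below them Il3ra, Csf2rb2, Csf3r, Csf2 and Csf3 overlapped each with the next, from 5.3 down to 0.321 CPM per kilobase. With calcipotriol, Csf1 (78.7 ± 5.14) stood alone at the top. Csf1r (23.3 ± 15.6) and Il34 (21.6 ± 4.27) overlapped, and Csf2ra (8.55 ± 3.51) followed without overlapping with Il34. Csf3 moved from the last to the fifth place at 8.5 ± 11.3 CPM per kilobase, a mean carried by tumor 5 (25.2), and all genes below Csf2ra overlapped with their neighbors.

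**Figure D3:**
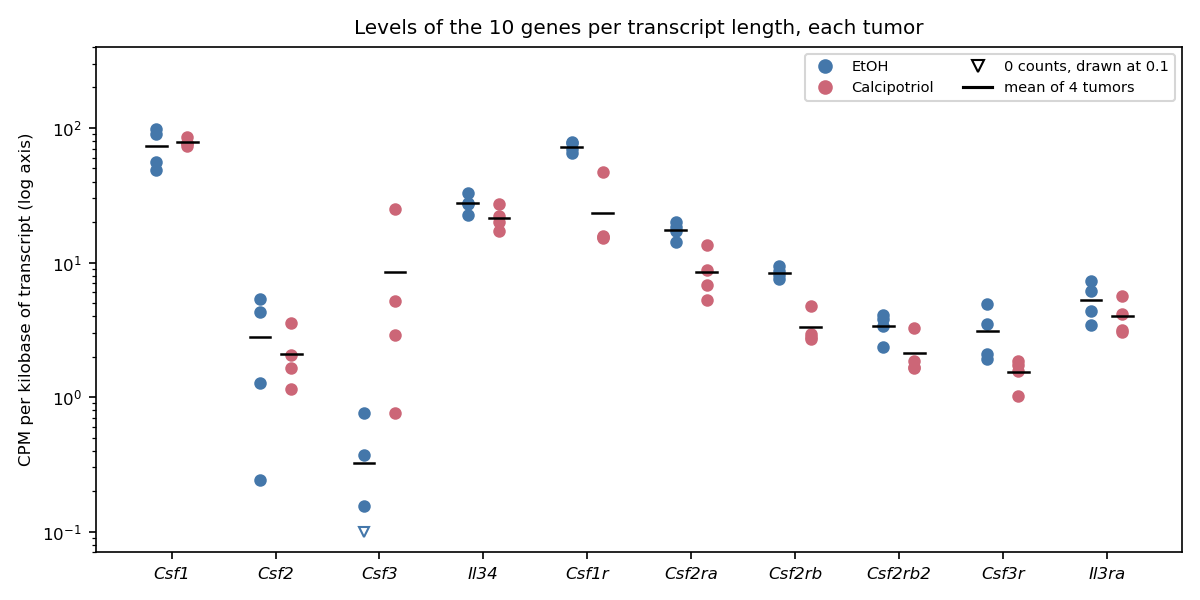
Level of each gene in each tumor as CPM per kilobase of transcript, on a log axis; points are tumors, bars are means of 4, and the open triangle marks the EtOH-treated tumor with 0 counts of Csf3. Csf1 and Csf1r are level with EtOH at 73.2 and 72.8, and Csf1 is above Csf1r in every calcipotriol-treated tumor.

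The balance of ligand and receptor was compared within each tumor, and 4 pairs of genes were examined beside the ratios to cell type markers, 6 ratios in all. The ratios of Csf1 to Csf1r and of Csf2ra to Csf2rb were added after the values had been seen. Csf1 per kilobase was 0.725, 0.622, 1.41 and 1.37 times Csf1r in EtOH tumors 1 to 4. It was 1.84, 4.93, 4.79 and 5.04 times Csf1r in calcipotriol tumors 1, 5, 6 and 7. The groups did not overlap, and the mean went from 1.03 ± 0.416 to 4.15 ± 1.54 (SD, n = 4; log2 difference 1.99, two-sided exact permutation p = 0.0286, 0.0571 adjusted). The ratio of Csf1 to Il34, the ligands of one receptor, was 2.64 ± 0.737 with EtOH and 3.76 ± 0.768 with calcipotriol (exact permutation p = 0.0857, 0.103 adjusted). The ratio of Csf2ra to Csf2rb, the chains of one receptor, was 2.08 ± 0.327 with EtOH and 2.56 ± 0.58 with calcipotriol (exact permutation p = 0.229, also 0.229 adjusted). No ratio passed 0.05 after adjustment over the 6.

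**Figure D4:**
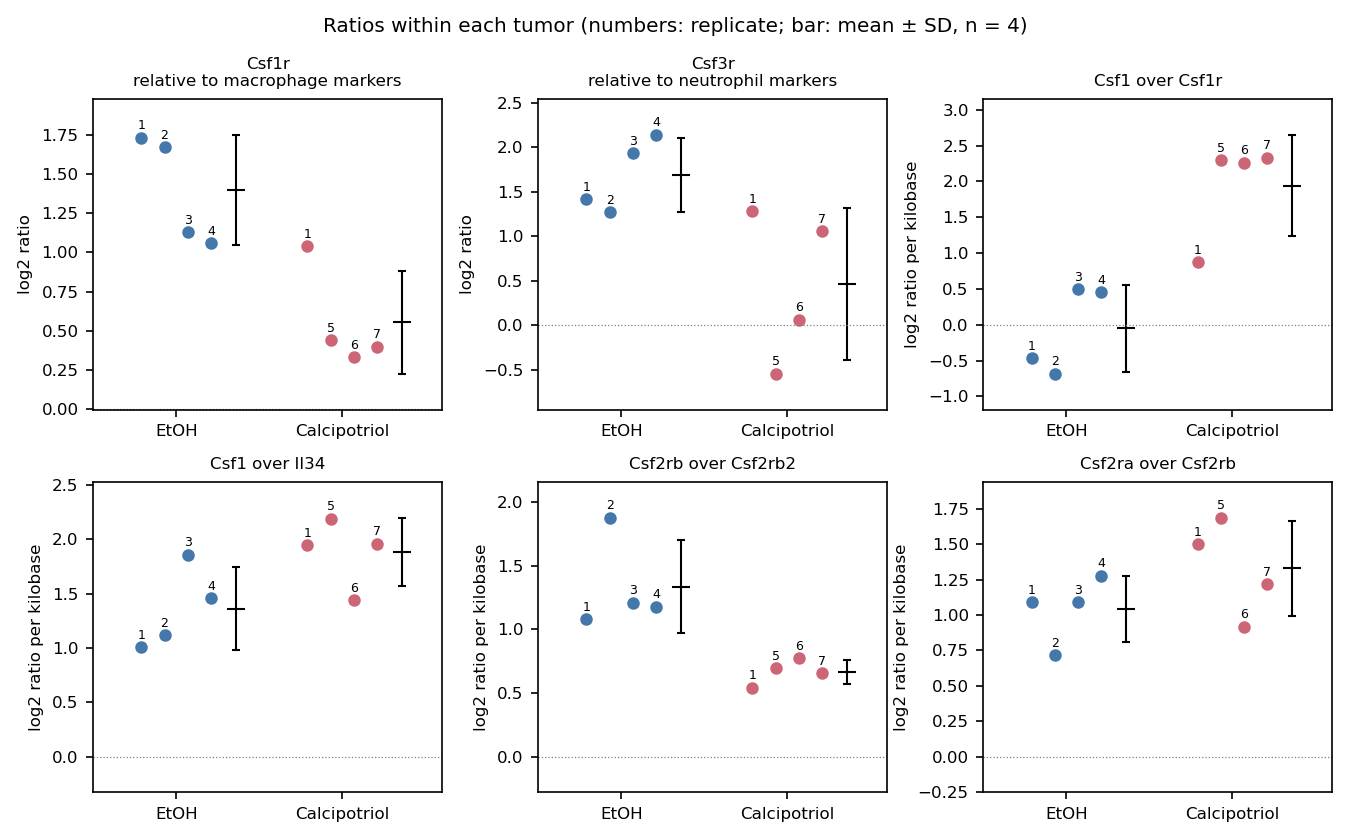
The 6 ratios in each tumor on the log2 scale; numbers mark the replicate and bars the mean and SD of 4 tumors, and the ratios of gene pairs are per kilobase of transcript. The groups do not overlap for Csf1r relative to macrophage markers, Csf1 over Csf1r and Csf2rb over Csf2rb2, and they overlap for the other 3 ratios.

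Other genes of these pathways were read from lists. Partner ligands and receptors had 5 of 10 genes tested and 0 past the thresholds in edgeR (2 at an unadjusted p under 0.05, and 1, Kit, past the thresholds with DESeq2). Kit, the stem cell factor receptor and of the same kinase family as Csf1r, stood at 6.44 ± 2.61 CPM with EtOH and 2.08 ± 1.18 CPM with calcipotriol (SD, n = 4; log2 fold change -1.63, edgeR adjusted p = 0.0968). Trem2, a lipid receptor of macrophages, had a log2 fold change of -0.68 (edgeR adjusted p = 0.0951) with every calcipotriol-treated tumor below the EtOH range. Signal transducers had 17 of 17 genes tested, 13 of them with a negative log2 fold change, and 0 past both thresholds in edgeR (median -0.44; 9 at an unadjusted p under 0.05, and 1, Pik3cd, past the thresholds with DESeq2). The largest difference was that of Pik3cd, a phosphoinositide kinase of blood cells (log2 fold change -1.13, edgeR adjusted p = 0.0829). Lyn, a Src family kinase, and Plcg2, a phospholipase, passed the adjusted threshold below the fold minimum (log2 fold change -0.97 and -0.84, edgeR adjusted p = 0.021 and 0.0444). Jak2, the kinase bound to Csf2rb and Csf3r, had a log2 fold change of 0.61 (edgeR adjusted p = 0.0822), with overlapping groups. Jak1, of the same list, had -0.42 (edgeR adjusted p = 0.156), with every calcipotriol-treated tumor below the EtOH range.

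Of 7 negative regulators 1 passed both thresholds. Inpp5d (SHIP-1), a lipid phosphatase that restrains signaling from these receptors, fell by 1.41 on the log2 scale, from 73.8 ± 3.52 CPM with EtOH to 27.8 ± 16.2 CPM with calcipotriol (SD, n = 4; edgeR adjusted p = 0.0445). Cish, a feedback inhibitor that STAT5 induces, stood at 12.8 ± 5.8 and 28.1 ± 5.36 CPM (log2 fold change 1.13, edgeR adjusted p = 0.0822), with every calcipotriol-treated tumor above the EtOH range, and it passed with DESeq2. Myeloid transcription factors had 9 of 11 genes tested, 0 past both thresholds in edgeR (6 at an unadjusted p under 0.05, and 1, Spi1, with DESeq2) and a median of -0.58. Irf8, which directs monocyte and macrophage fate, passed the adjusted threshold at a log2 fold change of -0.81 (edgeR adjusted p = 0.0333), and Maf, a factor of resident macrophages, had -0.84 (0.0725). Inflammatory cytokines and neutrophil chemokines had 11 of 12 genes tested, 0 past the thresholds in edgeR (2 at an unadjusted p under 0.05, 1 with DESeq2 and 1 with limma-voom) and a median of 0.46. Cxcl5, a neutrophil chemokine, had 0 to 69 counts with EtOH and 94 to 188 with calcipotriol (log2 fold change 2.36, edgeR adjusted p = 0.278), and the cytokine Lif had a log2 fold change of 1.37 (edgeR adjusted p = 0.0638). Il17a, an inducer of Csf3 in many cells, had 0 counts in all 8 tumors.

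Markers of other cell types also differed between the groups. Of 8 endothelial markers 4 fell, Pecam1 among them (log2 fold change -1.36, edgeR adjusted p = 0.0331), and of 7 tested erythroid markers 5 fell, Hba-a1 among them (-2.81, 0.000475). The summed endothelial level was 163 to 368 CPM with EtOH and 65.2 to 125 CPM with calcipotriol, and the summed erythroid level 3460 to 5830 and 434 to 820 CPM. DESeq2 called 6 endothelial and 7 erythroid markers lower, and limma-voom 2 and 5. The 8 epithelial markers took no common direction. The basal keratin Krt14 passed both thresholds as higher in edgeR (log2 fold change 5.17, adjusted p = 0.0336) and not in limma-voom, which called no epithelial marker, and Krt5, another basal keratin, had a log2 fold change of -0.27 (edgeR adjusted p = 0.927). The abundant luminal keratins Krt18 and Krt8 had log2 fold changes of -0.93 and -0.69 (edgeR adjusted p = 0.0162 and 0.0966), with every calcipotriol-treated tumor below the EtOH range. None of the T cell (5 tested), dendritic cell (5), eosinophil and mast cell (3), fibroblast (8) and skeletal muscle markers (8) passed both thresholds in edgeR, with median log2 fold changes of 1.88, -0.45, -0.13, 0.05 and -2.62. At an unadjusted p under 0.05 there were 1, 1, 0, 2 and 4 of them, and DESeq2 called 2 muscle markers lower. Defining genes of those cells were Cd3e with 0 to 29 counts per tumor, Zbtb46 with 28 to 127, Siglecf with 0 to 15, Col1a1 with 5577 to 28519 and Acta1 with 0 to 395. The part of these cells in the results for the 10 genes was not tested.

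**Figure D5:**
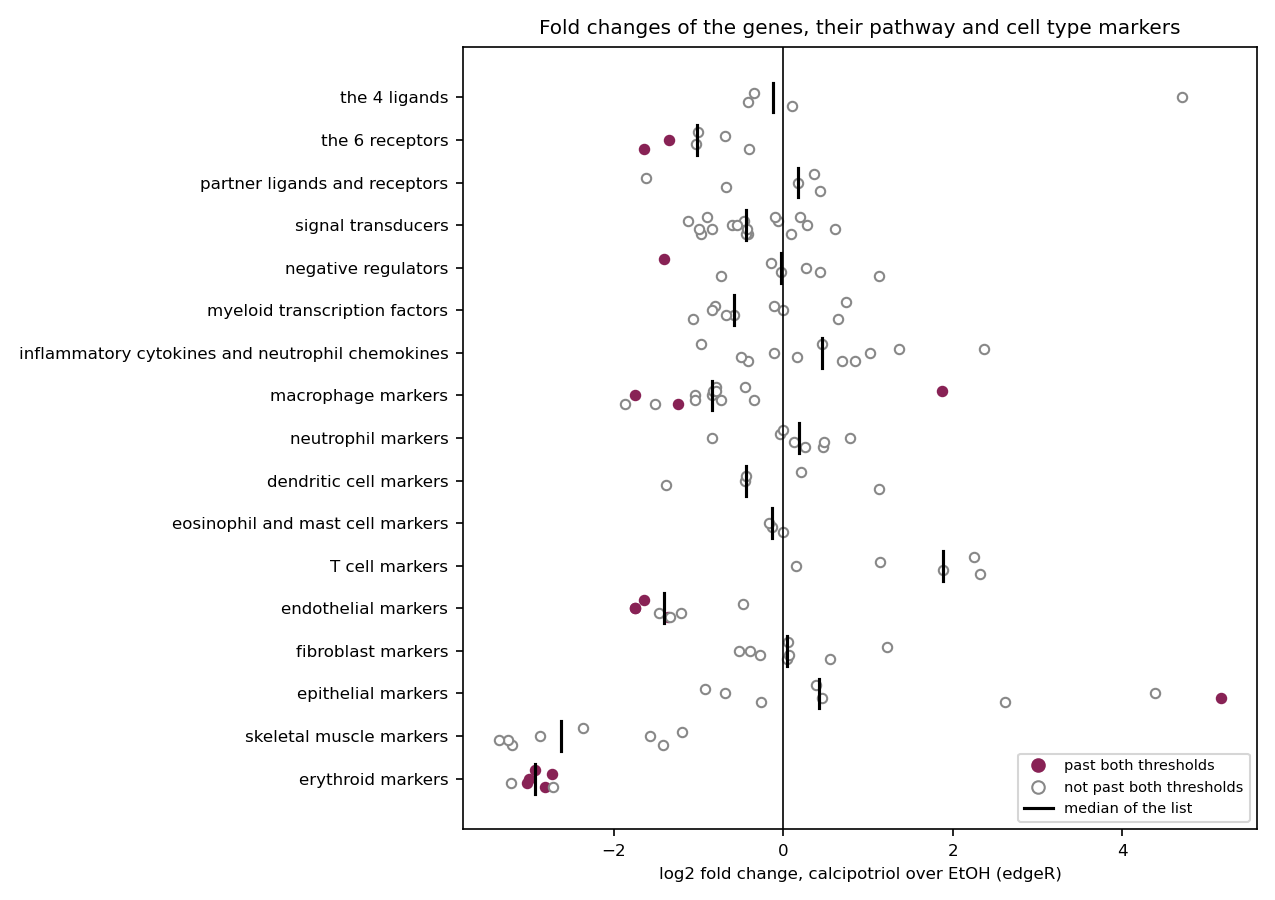
Log2 fold change of every tested gene of each list, calcipotriol over EtOH; filled circles passed both thresholds and black bars are list medians. The 6 receptors have a median of -1.02, the macrophage markers -0.84 and the neutrophil markers 0.19, and the widest single difference among the ligands is that of Csf3.

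For the genes whose log2 CPM spanned at least 1, the tested genes with the most similar course over the 8 tumors were found by the mean absolute difference of centered log2 CPM. The course of Csf1r was most like those of Entpd1 (0.117), an ectonucleotidase of immune and vascular cells, Ucp2 (0.132), a mitochondrial carrier, and Apoe (0.173), an apolipoprotein that macrophages make. The course of Csf2rb was most like those of Ccrl2 (0.0777), a chemerin-binding receptor, Ms4a6c (0.0966) and Adgre1 (0.125), the F4/80 antigen of macrophages. Csf2ra was nearest to Selplg (0.14), the P-selectin ligand of leukocytes, Trpv2 (0.148) and Cryl1 (0.151). Csf2rb2 was nearest to Rassf4 (0.133), Pik3r5 (0.143) and Chst12 (0.152), and Il3ra to Hebp2 (0.128), Gm5617 (0.154) and B4galt4 (0.164). Csf3r was nearest to Amot (0.123), Tlr7 (0.127) and 2410131K14Rik (0.173).

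For the scarce ligands the distances were larger, but so were their spans, and the distances were not scaled to the span. Csf3, which spanned 8.65 log2 units, had Car4 (0.557), a carbonic anhydrase, Tmem178 (0.723) and Saa1 (0.867), an acute-phase protein, as its nearest genes. Csf2, which spanned 3.94, had Fv1 (0.208), Fbn2 (0.259) and Slit3 (0.27). These distances describe 8 tumors that share the treatment contrast, and each gene was picked as nearest among all tested genes with a symbol.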

How the data were processed

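Bulk RNA-Seq libraries were made from 8 mammary tumors (4 per group) with the NEBNext Ultra kit, whose labels state no strand setting. The authors deposited 1 table of estimated counts (expected counts) per gene, not normalized. The submitters' processing notes name STAR 2.5.3, RSEM 1.3.1, DESeq2 1.24.0 and GRCm38, and the annotation is not given in the sources used here. The labels name a NovaSeq sequencer and the study's methods a HiSeq. In each tumor 4.2% to 6.22% of the values were not whole, and all were rounded, although whole counts had been assumed when the tests were planned. Symbols came from GENCODE M21. The identifiers without a symbol, which were kept, held 0.305% to 1.98% of the counts, and mitochondrial genes held 2.57% to 4.27%.

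Groups were compared with edgeR 4.0.16 in R 4.3.3 (filterByExpr, TMM, glmQLFit and glmQLFTest) and Benjamini-Hochberg adjustment over 14458 genes. SE is the absolute log2 fold change divided by the square root of F. CPM used TMM-scaled library sizes, on which 3 counts correspond to 0.119 to 0.146 CPM. The floors and counting errors cover counting error only. Ratios were compared with two-sided exact permutation tests over 70 arrangements. Alternatives were DESeq2 1.42.0, its size factors, limma-voom (limma 3.58.1), 2 other filters, no fold minimum, a prior count of 0.5, list medians and each tumor left out in turn. Simulated data for this comparison held 200 changed genes (log2 fold change 2, 14270 genes tested). In them edgeR recovered 190 with 6 false calls, limma-voom 186 with 7 and DESeq2 186 with 25. All receptor genes changed less than that (the most was Csf1r, log2 fold change -1.64), so these recovery rates do not carry over to them.

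The 10 genes, the gene lists and the tests were chosen with earlier results of these data known. Named are all 10 genes; of each pathway list the genes past both thresholds and the 2 with the largest absolute log2 fold change; of each cell type list the first marker; and the 3 genes of most similar course. One gene that this rule names is not reported here. Genes named outside this rule (Lyn, Plcg2, Irf8, Jak1, Jak2, Hmgxb3, Il3, Il5, Il17a, Lyz2, Cd163, Krt5, Krt8, Krt14, Krt18, Ly6g) were chosen after their values were seen. The promoter windows shown were also chosen after the search, since RefSeq's table gave no entry for Csf3. The labels name separate tumors as replicates. No pair of libraries agreed within sampling noise.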

Additional observations from a re-analysis of the deposited data

Results flagged for a closer look

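Within groups of 4 tumors, a tumor was picked out when its gap to the nearest other, divided by the range of log2 CPM, exceeded Dixon's 95% critical value. Of 20 groups examined (10 genes in 2 treatments), chance alone would pick out about 1. Calcipotriol tumor 1 was picked out as high for Csf1r (0.975 of the range) and for Csf2rb (0.861). Its levels were 220 CPM of Csf1r, against 72.1 to 74.1 CPM in calcipotriol tumors 5, 6 and 7, and 23.2 CPM of Csf2rb, against 13.3 to 14.4 CPM. In the same tumor the summed macrophage markers were 2730 CPM, against 1550 to 1990 CPM in the other 3, and Csf3 was 1.07 CPM, against 4.07 to 35.5 CPM. Why this tumor lay nearer to the EtOH group was not tested.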

How the results depend on the processing

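The number of the 10 genes past both thresholds as higher was 0 and became 1 (Csf3) with no filter on low counts, with DESeq2 and without calcipotriol tumor 1, so it ranged from 0 to 1 when each tumor was left out. The number past as lower was 2 and ranged from 1 to 3 when each tumor was left out: 3 (Csf2ra added) without calcipotriol tumor 1 and 1 (Csf2rb) without any one of the other 7. It was 3 with no filter, DESeq2 and limma-voom. Over all genes the count of 292 became 458 with no filter and 644 with DESeq2, and ranged from 110 to 642 when each tumor was left out. Csf1 turned sign without EtOH tumor 1 (-0.0046) and EtOH tumor 2 (-0.047), and Csf2 with limma-voom (0.10) and without EtOH tumor 4 (0.10), and the cause was not tested. With each tumor left out Csf1 ranged from -0.047 to 0.28 and Csf2 from -0.80 to 0.10. Csf2 and Csf3 could not be fitted with at least 10 counts in every tumor, which they do not have. With each tumor left out, Csf1r relative to macrophage markers ranged from -1 to -0.731, and in 5 of 8 cases the exact permutation p became 0.0571, with 35 arrangements left. Csf3r relative to neutrophil markers ranged from -1.5 to -0.888, with an exact permutation p of 0.0286 before adjustment without calcipotriol tumor 1. With the list median in place of the mean these were -1.56 and -0.826. Csf1 over Csf1r ranged from 1.78 to 2.35.

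No paired analysis was made, because no label pairs EtOH-treated with calcipotriol-treated tumors. Values near or under 20 counts, as in EtOH tumors 1 and 2 for Csf2 and in all EtOH-treated tumors for Csf3, carry a counting error of over 20%, and with 4 tumors a group no exact test can go below p = 0.0286.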
